A study of Mus musculus with 16 samples.

Results

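miR-21-5p was measured outside the cells, in RNA of culture supernatants from X-irradiated HCT116 cells, a line derived from a human colorectal carcinoma. It was picked out as the miRNA name hsa-miR-21-5p on the array, which made it 1 of the 1205 human miRNAs with probes. The array carried 2 probes for it, each printed as 20 spots, and these are called the first (A_25_P00010975) and the second probe (A_25_P00010976). Cultures received 0, 2, 6 or 10 Gy at a high dose rate, and the supernatant was taken 72 h later, with 4 cultures and 4 arrays per dose, which the design text calls independent for 0, 6 and 10 Gy. The 0 Gy cultures were the controls. All cultures were kept in RPMI1640 medium with 10% fetal bovine serum, and no array of medium without cells was analysed here. The labels name mouse as the organism, but the line and the probes are human, and all miRNA names below are human unless marked mmu.

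miR-21 is an oncogenic miRNA that is raised in many carcinomas, colorectal carcinoma among them. Its 5p arm is the main product of the hairpin, and it pairs through its seed with the mRNAs of tumour suppressors such as PDCD4. In the human genome the hairpin lies next to VMP1, a gene of autophagy, and overlaps its transcripts. Cells release miRNAs in vesicles and bound to proteins, and miR-21-5p in plasma has been studied as a marker of tumours. A level in supernatant cannot tell fewer releasing cells from less miRNA released per cell. Since 100 ng of RNA was labelled, the values below are relative to that RNA and are not amounts per culture. A change in the makeup of the RNA cannot be told apart either.

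The sequences below are the mouse counterparts of the molecule measured, of its other arm, and of the hairpin that holds both. Human sequences were not available here and may differ from them. They come from RefSeq for mouse (GRCm38.p6), the species of the reference used here, and the seed, bases 2 to 8 from the 5′ end, is in capitals in the mature miRNAs. The mature miR-21a-5p lies at chr11:86584120-86584141 on the minus strand and miR-21a-3p at chr11:86584082-86584103 on the same strand.
mmu-miR-21a-5p: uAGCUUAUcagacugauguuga
mmu-miR-21a-3p: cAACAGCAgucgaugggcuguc
In the 92-base mouse hairpin (chr11:86584067-86584158, minus strand), the capitals mark both mature arms, the 5p arm first.
Mir21a hairpin: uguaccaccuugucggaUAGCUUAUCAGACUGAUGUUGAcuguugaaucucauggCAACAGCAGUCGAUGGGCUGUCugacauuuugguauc
Of the 1679 mouse mature miRNAs in the RefSeq table, 2 carry the seed AGCUUAU, miR-21a-5p and miR-21c.

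Across the 16 arrays, 242 to 358 human miRNAs were detected per array, and no spot was saturated. The 0 and 2 Gy arrays were on slide 1, and the 6 and 10 Gy arrays were on slide 2. The 2 Gy comparison with 0 Gy was therefore made within a slide, whereas dose and slide cannot be told apart for 6 or 10 Gy against 0 Gy. Of the miRNAs that mark colorectal epithelium, miR-200c-3p and miR-141-3p were detected on 15 arrays each, while miR-192-5p, miR-194-5p and miR-215-5p were detected on none.

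miR-21-5p was detected on every unirradiated array and was dim or below detection on most irradiated ones. The dimmest unirradiated array lay below the brightest arrays at 2 and 10 Gy. At 0 Gy the mean intensity of the first probe was 281, 402, 125 and 857 in replicates 1 to 4. At 2 Gy it was 13.8, 182, 9.61 and 9.33. Replicate 2 at 2 Gy lay within the range of the 0 Gy arrays and was 13.2 times as bright as the next array of its dose. At 6 Gy the first probe gave 19.5, 63.5, 84.0 and 1.35, so all 4 arrays lay below the dimmest 0 Gy array. At 10 Gy it gave 110, 202, 55.1 and 19.1, and replicate 2 alone lay above the dimmest 0 Gy array. The unirradiated arrays themselves spanned 6.88-fold from dimmest to brightest. These intensities are the scanner's, with background subtracted and no scaling between arrays.

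The second probe was dimmer and ordered the doses in a like way. Its mean intensity was 126, 113, 37.6 and 199 in replicates 1 to 4 at 0 Gy. At 2 Gy it was 2.26, 65.3, 1.80 and 2.18, again with replicate 2 apart from the others. At 6 Gy it was 6.78, 21.4, 21.3 and 0.28, and at 10 Gy 32.3, 64.6, 27.0 and 6.42. On the 10 arrays where both probes were detected, the first was 2.04 to 4.31 times as bright as the second, with a median ratio of 3.22. The scaled log2 values of both probes correlated with Pearson's r of 0.94 over the 16 arrays, which share each array's labelling. Spots of the first probe on 1 array had a coefficient of variation of 4.73 to 22.8% where the probe was detected, far below the spread between cultures.

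**Figure D1:**
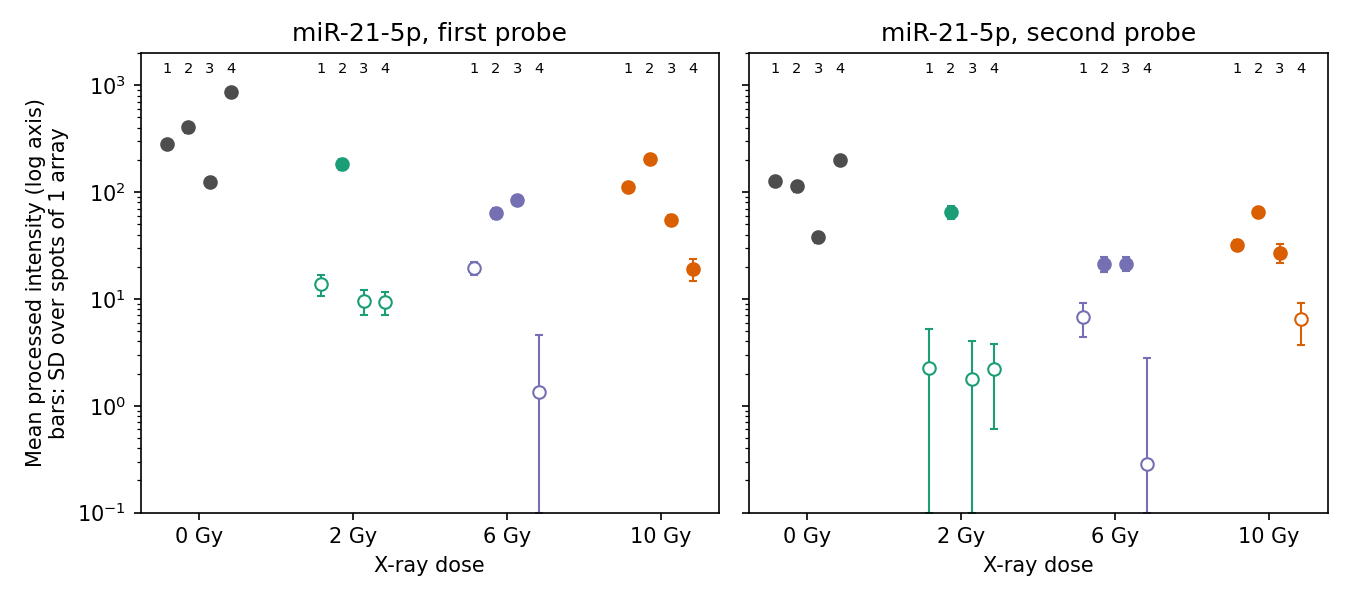
Mean processed intensity of the first (left) and second (right) probe for miR-21-5p on each of the 16 arrays, on a log axis, by X-ray dose in Gy, with replicate numbers along the top. Bars are the SD over spots of 1 array and are cut at the lower edge, and open points are arrays where the probe was not detected. At 2 Gy replicate 2 is the only filled point in either panel, at 182 and 65.3.

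A probe was called detected if the scanner's flag on that array put more than a share of 0.5 of its spots well above background. At 0 Gy every spot used of both probes passed on all 4 arrays. At 2 Gy the first probe had 31.6, 100, 0 and 0% of its spots above background, and the second probe passed on replicate 2 alone. At 6 Gy the first probe had 47.4, 100, 100 and 0%, and the second 0, 89.5, 90 and 0%. At 10 Gy the first probe had 100, 100, 100 and 70%, and the second 100, 100, 100 and 0%. miR-21-5p was thus detected on 1 of 4 arrays at 2 Gy, 2 of 4 at 6 Gy and 4 of 4 at 10 Gy, against 4 of 4 at 0 Gy. Exact two-sided Fisher tests against 0 Gy gave p of 0.143 at 2 Gy (adjusted 0.429) and 0.429 at 6 Gy (adjusted 0.643), where 4 against 4 arrays cannot go below 0.0286. The scanner software's own flag for the whole miRNA was more lenient, with 2, 3 and 4 of 4 arrays at 2, 6 and 10 Gy.

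The software's own total signal for miR-21-5p was not the sum of the probe means above. It was 157, 196, 62.8 and 401 at 0 Gy and 5.25, 93.0, 0.1 and 0.1 at 2 Gy in replicates 1 to 4. At 6 Gy it was 7.60, 32.6, 40.7 and 0.1, and at 10 Gy 54.8, 101, 30.9 and 7.25. The value 0.1 stood on the 3 arrays where the software called the miRNA not detected.

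For the tests, each array was divided by its 75th percentile over 518 probes detected on all arrays, floored at a scaled signal of 0.0412 (-4.60 on the log2 scale), and put on the log2 scale. The level of miR-21-5p is the mean of both probes. It was -0.88, -1.46, -2.98 and 0.03 in replicates 1 to 4 at 0 Gy. At 2 Gy replicate 2 had -2.64, and the other 3 arrays lay at the floor. At 6 Gy replicates 2 and 3 had -3.92 and -3.04, and the other 2 arrays lay at the floor. On replicate 2 at 6 Gy the second probe was detected but lay at the floor after scaling. At 10 Gy the levels were -2.99, -1.87, -3.40 and -4.25, with none at the floor. Values at the floor have no order, and a fall that reaches it is understated.

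The level of miR-21-5p was lower in supernatant RNA of cultures given 2 or 6 Gy than in that of unirradiated cultures. The mean level was -4.11 ± 0.98 at 2 Gy against -1.32 ± 1.27 at 0 Gy (SD, n = 4 each). It fell by 2.79 on the log2 scale at 2 Gy (SE 0.66, 95% confidence interval -4.21 to -1.37), a 6.90-fold fall, with an adjusted p of 0.0225 by limma. The mean at 6 Gy was -4.04 ± 0.74 against the same 0 Gy mean (SD, n = 4 each), and the fall was 2.72 (SE 0.66, interval -4.14 to -1.29, adjusted p = 0.0304 by limma). Of the 283 human miRNAs tested, 12.7% passed in either direction at 2 Gy and 19.4% at 6 Gy. Falls that passed made up 6.71% at 2 Gy and 13.4% at 6 Gy. Lower calls were 52.8% of the calls at 2 Gy and 69.1% at 6 Gy, beside 14.4 and 15.3% with scaling over all human probes and 22.9 and 28.1% with quantile normalization, and miR-21-5p was among the lower calls under all 3. Without scaling no miRNA passed at either dose, and miR-21-5p lost both calls (-2.59 with adjusted p = 0.0751 at 2 Gy and -2.71 with adjusted p = 0.0562 at 6 Gy, limma). Both comparisons share the 0 Gy arrays. With 3 of 4 arrays at 2 Gy and 2 of 4 at 6 Gy at the floor, the SDs of these doses are set in part by it. The intervals and p-values thus rest in part on a spread that the floor limits.

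At 10 Gy the level was -3.13 ± 0.99 against -1.32 ± 1.27 at 0 Gy (SD, n = 4 each). The difference of -1.80 (SE 0.66, interval -3.22 to -0.38) did not pass after adjustment over all miRNAs, with an unadjusted p of 0.0164 and an adjusted p of 0.129 by limma. At 10 Gy 0.353% of the miRNAs passed, a single miRNA that was higher at 10 than at 0 Gy (miR-149-3p, named after its values were seen), and 63 had an unadjusted p under 0.05. Without replicate 3 at 0 Gy, the lowest array of its dose, the difference became -2.36 with an adjusted p of 0.0257 by limma. This was the only 1 of 16 fits with a single array left out that passed, and over all 16 the differences ran from -2.36 to -1.35 and the adjusted p up to 0.359.

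The mean levels ranked 0 Gy highest, then 10, 6 and 2 Gy. The ranges at 10 and 6 Gy overlapped, as did those at 6 and 2 Gy. The order of 6 and 2 Gy is not settled, since arrays of both doses lay at the floor. Mean unscaled intensities were higher at 2 than at 6 Gy, 53.7 against 42.1 for the first probe and 17.9 against 12.4 for the second. Replicate 2 at 2 Gy was far above the others of its dose in both. miR-21-5p was 0.91 higher at 10 than at 6 Gy (SE 0.66, interval -0.51 to 2.33), and the adjusted p was 0.391 by limma. In that comparison, within slide 2, 0% of the miRNAs passed by limma and 42 had an unadjusted p under 0.05. A straight line over dose had a slope of -0.12 per Gy (adjusted p = 0.622 by limma), and no miRNA passed while 36 had an unadjusted p under 0.05. The moderated F test for any difference among the doses gave F = 7.66 and an adjusted p of 0.0591, and none passed.

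The calls at 2 and 6 Gy rested on the spread shared over all 16 arrays. With the 8 arrays of the compared doses alone, the differences kept their size and the adjusted p became 0.0950 at 2 Gy and 0.144 at 6 Gy by limma. With single arrays left out, 11 of 16 fits kept each call, with the largest adjusted p at 0.0860 for 2 Gy and 0.0882 for 6 Gy. Exact two-sided permutation tests of the levels gave p = 0.0571 at 2 Gy, 0.0286 at 6 Gy and 0.0571 at 10 Gy against 0 Gy, each 0.0762 after adjustment over 4 comparisons. The smallest p that 4 against 4 arrays allow is 0.0286. The 6 Gy levels all lay below those at 0 Gy, as was so for 3.53% of the 283 miRNAs tested. Unscaled levels gave the same p-values in these 3 tests.

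Each probe gave the same direction. The first probe fell by 3.45 at 2 Gy (SE 0.83, adjusted p = 0.0256 by limma over 592 probes), and the second by 2.12 (SE 0.53, adjusted p = 0.0273). At 6 Gy the first fell by 3.15 (adjusted p = 0.0332) and the second by 2.28 (adjusted p = 0.0293, limma). Of all probes, 5.74% passed as lower at 2 Gy and 12.5% at 6 Gy. At 10 Gy the differences were -2.01 and -1.59, with adjusted p of 0.165 and 0.0926 by limma, and 0.676% of the probes passed as lower. The dimmer probe reached the floor on more arrays, which limits how far its values can fall. Both probes read the same RNA on the same arrays and are not replicates. The second probe was detected on all arrays of a dose only at 0 Gy. It thus entered the tests through the dose where it was brightest, and its falls are not separate support.

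**Figure D2:**
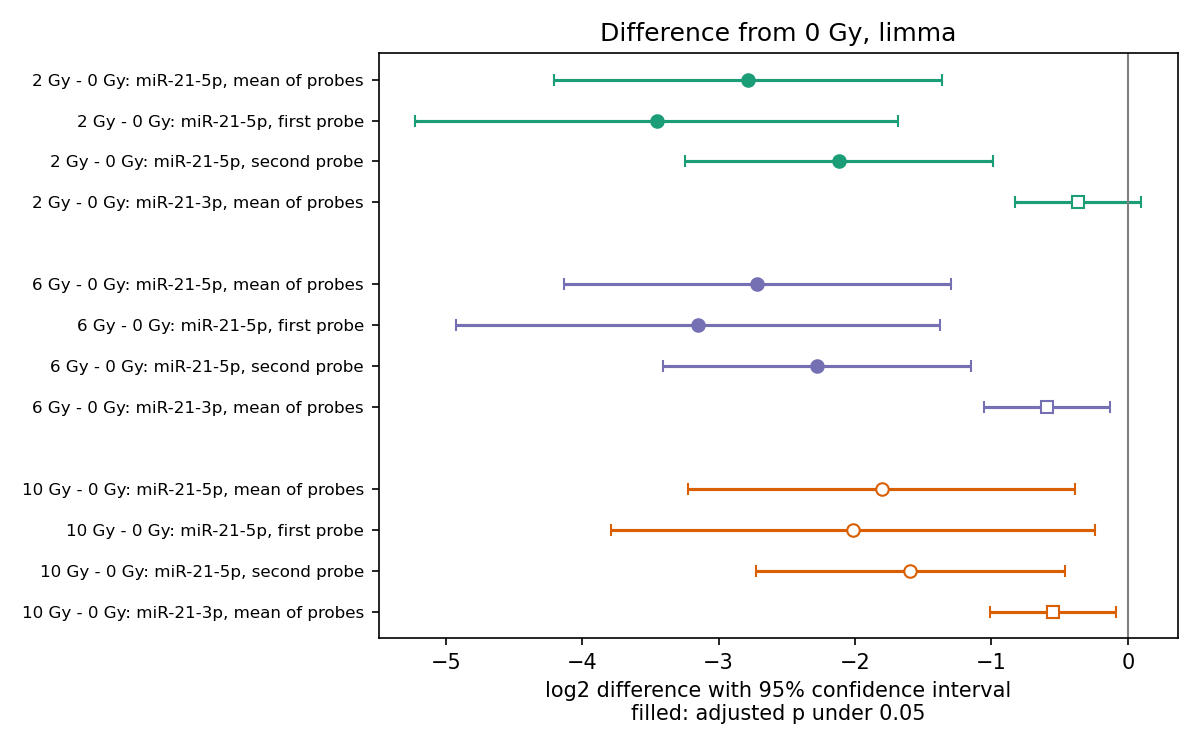
Differences in log2 level between each irradiated dose and 0 Gy with 95% confidence intervals by limma, for miR-21-5p as the mean of its probes and per probe (circles) and for miR-21-3p (squares). Filled symbols had an adjusted p under 0.05. The intervals of miR-21-5p run from -4.21 to -1.37 at 2 Gy, from -4.14 to -1.29 at 6 Gy and from -3.22 to -0.38 at 10 Gy.

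The other arm of the hairpin, miR-21-3p, was detected on all 16 arrays, including those where miR-21-5p was not. This arm is usually the less abundant product of the hairpin in cells. Its levels were -2.49, -2.07, -2.17 and -2.10 in replicates 1 to 4 at 0 Gy and -2.48, -2.08, -2.96 and -2.76 at 2 Gy. They were -2.53, -2.32, -3.12 and -3.24 at 6 Gy and -2.57, -2.88, -2.68 and -2.90 at 10 Gy. The unirradiated arrays differed less among themselves for this arm, with an SD of 0.19 against 1.27 for miR-21-5p. miR-21-3p differed by -0.36 at 2 Gy (interval -0.83 to 0.10, adjusted p = 0.224 by limma), which became 0.04 with scaling over all human probes. At 6 Gy the difference was -0.60 (interval -1.06 to -0.13, adjusted p = 0.0570, and 0.0353 with slide row as a block), and at 10 Gy -0.55 (interval -1.01 to -0.09, adjusted p = 0.157, limma). One of its probes passed alone at 6 Gy, at -0.61 (adjusted p = 0.0486, limma), and the other had -0.58 (adjusted p = 0.0726). The 10 Gy levels of miR-21-3p all lay below those at 0 Gy (exact permutation p = 0.0286, adjusted 0.114), as was so for 5.3% of all miRNAs. Without scaling these groups overlapped (exact permutation p = 0.0857, adjusted 0.343).

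**Figure D3:**
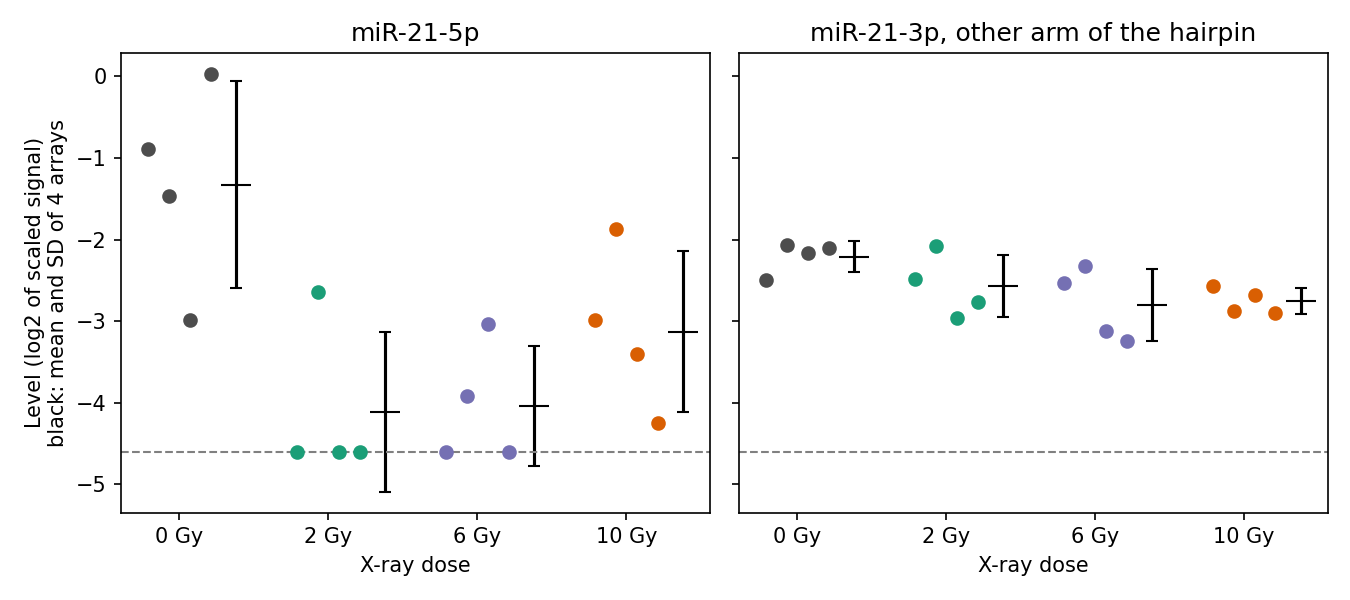
Log2 level of miR-21-5p (left) and miR-21-3p (right) on each array by X-ray dose in Gy, with replicates 1 to 4 from left to right, the mean and SD of 4 arrays in black and the floor of -4.60 as a dashed line. miR-21-5p reached the floor on 5 irradiated arrays, whereas miR-21-3p stayed between -3.24 and -2.07 on all 16.

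The arms were also compared within each array, a test added after the values were seen. Since each arm has its own probes, only the shift of this difference between doses is read, not which arm was more abundant. The level of miR-21-5p minus that of miR-21-3p was -2.12, -0.56, -1.64 and -1.84 in replicates 1 to 4 at 2 Gy, against 1.61, 0.60, -0.81 and 2.13 at 0 Gy. It was -2.07, -1.60, 0.08 and -1.36 at 6 Gy and -0.42, 1.01, -0.73 and -1.36 at 10 Gy. On replicates 1, 3 and 4 at 2 Gy and 1 and 4 at 6 Gy, miR-21-5p lay at the floor. The differences on those arrays vary with miR-21-3p alone and are upper limits. Every irradiated dose overlapped with 0 Gy, at 2 and 6 Gy only through replicate 3 of the unirradiated cultures. The shifts against 0 Gy were -2.42 at 2 Gy, -2.12 at 6 Gy and -1.26 at 10 Gy. None passed, with exact two-sided permutation p of 0.0571, 0.0571 and 0.200 (adjusted 0.114, 0.114 and 0.257), so a greater fall of the 5p arm was not established.

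miR-590-5p, which shares the seed of human miR-21-5p, was near background throughout. Its 2 probes had mean intensities of 0.67 to 12.3, and neither was detected on any array. The software's flag for the whole miRNA called it on 1 array, at 0 Gy. It was not tested.

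Some values of the arrays' own quality controls moved with the level of miR-21-5p. The labelling spike-in, an RNA added before labelling, had a log2 signal of 1.02, 6.97, 6.40 and 4.88 in replicates 1 to 4 at 2 Gy, against 10.1, 8.30, -2.32 and 9.31 at 0 Gy. It was 1.67, 5.50, 5.95 and -2.32 at 6 Gy and 6.85, 9.02, 7.58 and 6.06 at 10 Gy. The -2.32 was identical on 0 Gy replicate 3 and 6 Gy replicate 4 and may be a lower limit of the readout. The correlations over all arrays and the fit with the spike-in as a covariate used it as a number. The spike-in was within the software's accepted range on 3 of 16 arrays, and a second spike-in added at hybridisation was so on all 16. For the labelling spike-in, the lowest exact permutation p of an irradiated dose against 0 Gy was 0.343. Its signal was higher at 10 than at 6 Gy without overlap (exact permutation p = 0.0286, adjusted 0.114 over 4 comparisons). The hybridisation spike-in was lower at 2 than at 0 Gy by the same p (difference -0.79 on the log2 scale).

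Over the 16 arrays the labelling spike-in and the level of miR-21-5p correlated with Pearson's r of 0.63 (permutation p = 0.00975, adjusted 0.039 over 4 array measures) and Spearman's rho of 0.76 (permutation p = 0.00129, adjusted 0.00516). Within slide 1 r was 0.60 (exact permutation p = 0.121, n = 8) and rho 0.81 (p = 0.0250), and within slide 2 r was 0.78 (exact permutation p = 0.0208, n = 8). With each dose's mean taken out, r was 0.75. When both arrays with the most extreme spike-in signal were left out, r was 0.81 over 14 arrays. The part of the labelling yield in the fall of miR-21-5p was not tested further than by a fit with the spike-in as a covariate, in which the differences from 0 Gy were -2.48 at 2 Gy (adjusted p = 0.00390), -1.99 at 6 Gy (adjusted p = 0.0432) and -2.01 at 10 Gy (adjusted p = 0.0126, limma). In that fit the difference between 10 and 6 Gy became -0.02. The number of detected miRNAs had an r of 0.54 (permutation p = 0.0325, adjusted 0.065) and a rho of 0.69 (adjusted 0.00854) with the level. For this number, r was 0.66 (exact permutation p = 0.0737) and rho 0.78 (p = 0.0315) within slide 1. Within slide 2 its r was 0.18 (exact permutation p = 0.651) and its rho 0.38 (p = 0.348). With each dose's mean taken out, its r was 0.42 (permutation p = 0.107) and its rho 0.50 (p = 0.0496). For the hybridisation spike-in (r = 0.45) and the unscaled 75th percentile (r = -0.19), neither r nor rho passed after adjustment.

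**Figure D4:**
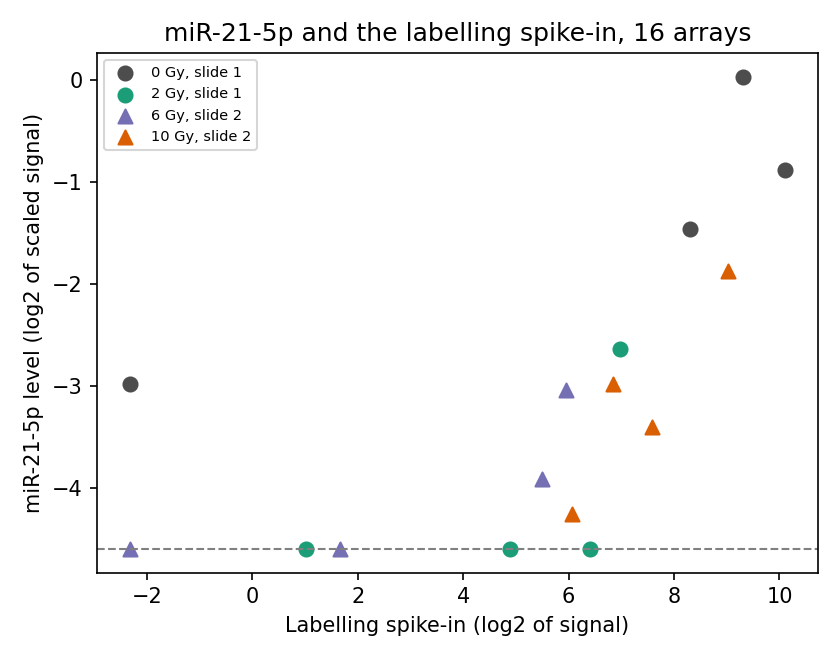
Log2 level of miR-21-5p against the log2 signal of the labelling spike-in on the 16 arrays, coloured by dose, with circles for slide 1, triangles for slide 2 and the floor as a dashed line. The 3 unirradiated arrays with the brightest spike-in had the highest miR-21-5p, and 0 Gy replicate 3 and 6 Gy replicate 4 shared the lowest spike-in signal of -2.32 with levels of -2.98 and the floor.

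Other miRNAs of colorectal carcinoma were set beside miR-21-5p. Of 19 further miRNAs often raised in that tumour, 18 were matched to the array and 9 were tested, miR-106a-5p being not analysed here. At 2 Gy 2 of the 9 fell and 0 rose, where 6.71% of all 283 miRNAs passed as lower and 12.7% in either direction. At 6 Gy 2 fell and 1 rose, beside 13.4% of all miRNAs as lower and 19.4% in either direction. At 10 Gy 0 of the 9 passed. Counts this small do not set the list apart from all miRNAs. Their median difference from 0 Gy was -1.37 at 2 Gy, -1.61 at 6 Gy and -0.49 at 10 Gy, beside 0.03, 0.12 and -0.02 over all 283 miRNAs. All these comparisons share the 0 Gy arrays.

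The 2 that fell were miR-25-3p and miR-221-3p at both doses. miR-25-3p, a relative of miR-92a-3p with the same seed, differed by -3.25 at 2 Gy and -3.04 at 6 Gy (adjusted p = 0.0350 and 0.0407, limma). miR-221-3p, which targets the cell cycle inhibitor p27, differed by -2.03 and -1.79 (adjusted p = 0.0283 and 0.0407, limma). Its cluster partner miR-222-3p had -1.90 and -1.61 and did not pass, with adjusted p of 0.0520 and 0.0636. miR-155-5p, an oncogenic miRNA best known from lymphocytes, rose by 0.31 at 6 Gy (adjusted p = 0.0407, limma). The other 5 tested were miR-17-5p, miR-92a-3p, miR-93-5p, miR-183-5p and miR-31-5p, whose differences ran from -1.46 to -1.03 at 2 Gy and from -1.69 to -1.13 at 6 Gy without passing. Of these, miR-31-5p was detected on all arrays of a dose only at 0 Gy, so it entered the tests through that dose.

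Of 8 miRNAs proposed as circulating markers of colorectal cancer, 5 were tested. miR-1246, which is abundant in vesicles of tumour cells, differed by -2.18 at 2 Gy and -1.97 at 6 Gy (adjusted p = 0.0283 and 0.0407, limma). miR-29a-3p, which targets collagen mRNAs, had -2.48 at 2 Gy without passing (adjusted p = 0.0940) and fell by 3.20 at 6 Gy (adjusted p = 0.0407, limma). miR-23a-3p had -1.60 and -1.52, and miR-92a-3p -1.20 and -1.13, none of which passed. miR-1229-3p lay near 0, at -0.23 and 0.17. None of the 5 passed at 10 Gy.

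**Figure D5:**
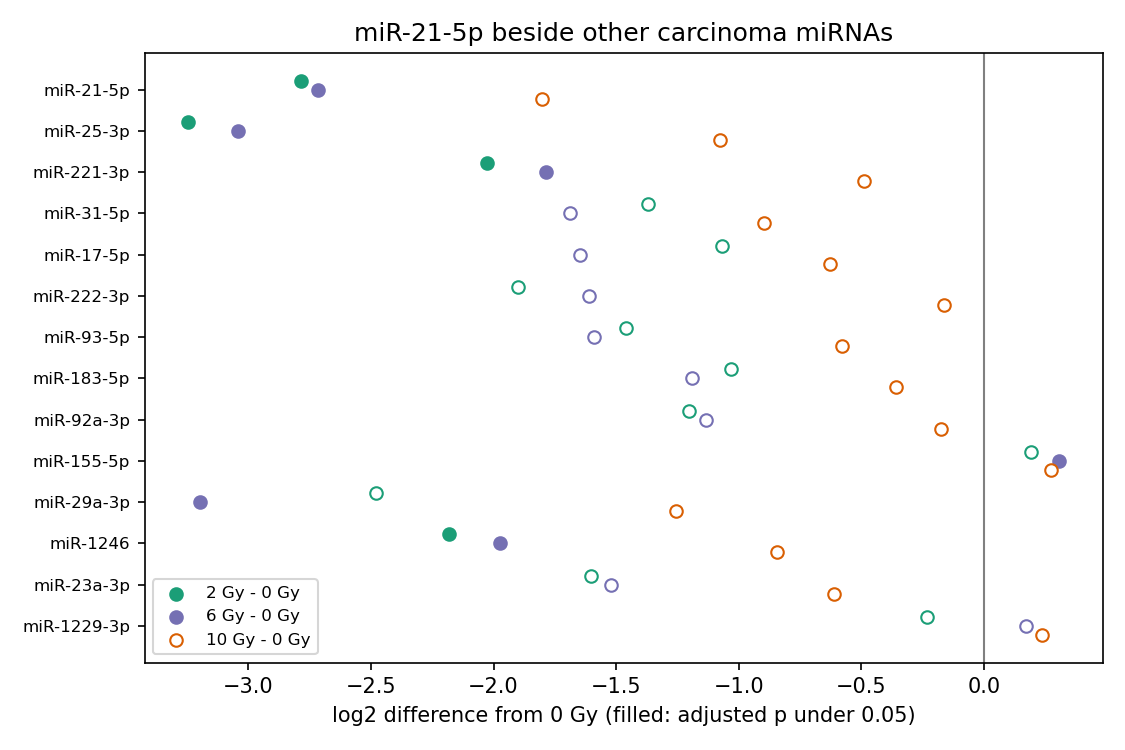
Log2 differences from 0 Gy at 2, 6 and 10 Gy for miR-21-5p, then 9 other miRNAs raised in colorectal carcinoma, then 4 more proposed as circulating markers, each group ordered by its 6 Gy value. Filled points had an adjusted p under 0.05 by limma. miR-21-5p has the lowest 10 Gy value shown, at -1.80.

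The fall of miR-21-5p was set against those of 3 miRNAs chosen because their changes were known to be like it, miR-100-5p, miR-25-3p and miR-29a-3p. Their mouse mature sequences, with seeds in capitals, show that none shares the seed of mouse miR-21a-5p.
mmu-miR-100-5p: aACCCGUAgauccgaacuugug
mmu-miR-25-3p: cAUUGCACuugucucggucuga
mmu-miR-29a-3p: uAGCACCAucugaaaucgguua
miR-100-5p, which is known to target the kinase MTOR, had differences of -2.82 at 2 Gy and -2.43 at 6 Gy, which passed, and -1.04 at 10 Gy, which did not. The change of miR-21-5p minus that of another miRNA, taken per array, was between -0.76 and 0.48 over the 9 comparisons. The lowest exact two-sided permutation p was 0.114, for miR-100-5p at 10 Gy (adjusted 0.675 over the 9). Because these miRNAs were chosen for their likeness, and miR-100-5p and miR-25-3p lay at the floor on 4 and 3 of the 16 arrays, the missing difference shows nothing about whether they act alike.

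miRNAs whose levels ran most like miR-21-5p over the 16 arrays were miR-100-5p (Pearson's r = 0.94), miR-425-5p (0.93), miR-1246 (0.92), miR-27a-3p (0.92), miR-25-3p (0.92), miR-30e-5p (0.92), miR-125b-5p (0.92), miR-24-3p (0.90), miR-4299 (0.90) and miR-1274a_v16.0 (0.89). These points share an array, its labelling and its scaling, and for miR-30e-5p and miR-1274a_v16.0 8 of the 16 values lay at the floor. So did 7 for miR-425-5p, 6 for miR-24-3p, 5 for miR-125b-5p, 4 for miR-100-5p, 3 for miR-25-3p and 2 for miR-27a-3p. miR-1246 and miR-4299 had none there. miR-21-5p itself lay at the floor on 3 arrays at 2 Gy and 2 at 6 Gy. miR-711 (-0.90), miR-483-5p (-0.90), miR-4257 (-0.87), miR-4271 (-0.86) and miR-1224-5p (-0.86) had the lowest r. Over the 282 other tested miRNAs the median r was -0.36, with 36 above 0.8 and 167 below 0.

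Markers of other sources were examined beside these results. Of the epithelial markers, 2 of 8 were tested, and miR-200c-3p had -2.14 at 2 Gy and -2.50 at 6 Gy without passing (adjusted p = 0.0972 and 0.0514, limma). The other, miR-141-3p, had -0.82 and -2.07 (adjusted p = 0.424 and 0.0570, limma). The summed intensity of the 8 was 122 to 1258 at 2 Gy, 19.4 to 443 at 6 Gy and 139 to 491 at 10 Gy, against 176 to 1040 at 0 Gy. Of 4 red blood cell miRNAs 1 was tested, miR-486-5p, and miR-451a and miR-144-3p were detected on no array. The summed intensity of those 4 was 33.2 to 73.2 at 2 Gy, 39.7 to 75.4 at 6 Gy and 29.98 to 61.2 at 10 Gy, against 43.0 to 64.6 at 0 Gy. Of 5 white blood cell and platelet miRNAs only miR-155-5p was tested, and miR-223-3p, miR-142-3p, miR-150-5p and miR-126-3p were detected on no array. That list summed to 59.97 to 98.0 at 2 Gy, 63.8 to 118 at 6 Gy and 50.5 to 79.7 at 10 Gy, against 48.1 to 91.3 at 0 Gy. Of 4 muscle miRNAs 3 were tested and none passed, with miR-1-3p detected on no array, and the liver miRNA miR-122-5p was detected on 4 arrays, 1 per dose. The part of serum miRNAs in the level of miR-21-5p was not tested.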

How the data were processed

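Single-colour Agilent miRNA arrays were hybridised with Cy3-labelled RNA (100 ng, ISOGEN extraction), per the labels' protocols. Per the file headers, scans had been read out by Feature Extraction 11.5.1.1. Its deposited processed signal is a background-subtracted intensity that had not been scaled across arrays, per the file headers. The other deposited columns used were the flags and the total signal per miRNA, and spike-in values on a log10 scale, per the file headers. Arrays had 56044 spots, of which 2164 control spots and the 3.27 to 4.90% flagged as outliers were left out, and 15 to 20 spots per probe of miR-21-5p were averaged. The number of arrays limits the precision.

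After scaling and the floor (5th percentile of the detected probes' signal, as a median across arrays), log2 values were computed from the deposited intensities. A miRNA entered the tests if some dose had 1 or more of its probes detected on all 4 arrays, leaving 592 probes and 283 human miRNAs with 4.17% of values at the floor. limma 3.58.1 in R 4.3.3 fitted a mean per dose on 16 arrays, with Benjamini-Hochberg adjustment over all miRNAs or probes and a threshold of 0.05. The scripts were tested on simulated data. Permutation tests used all 70 regroupings of 4 against 4 arrays, or 100000 resamples for correlations over 16 arrays and 40320 orders over 8 (scipy 1.17.1, Python 3.11.15, matplotlib 3.10.9).

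Members, lists and comparators were chosen with earlier results of these data known, and the named miRNAs are the tested members of those lists plus the 10 highest and 5 lowest correlations. The series' design text omits 2 Gy, a group that rests on the sample labels. Alternatives varied scaling, background, signal, floor, filter, probes, blocks, covariate and arrays.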

Additional observations from a re-analysis of the deposited data

Results flagged for a closer look

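Replicate 2 at 2 Gy stood apart from the other 3 arrays of its dose in the level of miR-21-5p (-2.64), in the log2 values of its first (-1.90) and second probe (-3.38), and in their intensities (182 and 65.3). At 6 Gy replicate 3 stood apart in the log2 value of the second probe (-4.03), the other 3 arrays being at the floor. The labelling spike-in was far below the others of its dose on replicate 3 at 0 Gy (-2.32 on the log2 scale). These were 7 of 32 sets of 4 arrays examined for a lone high or low array, and chance marks about 1 in 20. The sets overlap, since the level is built from both probes, and a set with 3 arrays at the floor is marked whenever the fourth is not. Without replicate 2 the level fell by 3.28 on the log2 scale at 2 Gy with an adjusted p of 0.0137 by limma. The 3 arrays then left at 2 Gy all lay at the floor, with an SD of 0. That p thus rests in part on a spread set by the floor.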

How the results depend on the processing

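Under the 15 alternatives at 2 Gy and 14 at 6 Gy that left out no single array, miR-21-5p was lower than at 0 Gy in all, with differences of -4.16 to -1.48 at 2 Gy and -3.56 to -1.41 at 6 Gy, and 12 at each dose passed. The smallest sizes came from normexp background correction (-1.48, -1.41 and -0.94 at 2, 6 and 10 Gy) and the largest at 2 and 6 Gy from the software's total signal (-4.16 and -3.56). The call was lost without scaling (-2.59 at 2 Gy, adjusted p = 0.0751, and -2.71 at 6 Gy, adjusted p = 0.0562) and with the 2 doses alone, which at 2 Gy is also the same slide alone (-2.79, adjusted p = 0.0950, and -2.72, adjusted p = 0.144, fewer arrays). Leaving out single arrays gave -3.34 to -2.33 at 2 Gy, where the call was lost on dropping 1 of 5 arrays, namely 0 Gy replicate 1 (adjusted p = 0.0685), 0 Gy replicate 4 (0.0588), 2 Gy replicate 1 (0.0860), 2 Gy replicate 3 (0.0727) and 2 Gy replicate 4 (0.0842). At 6 Gy the range was -3.27 to -2.26, and the call was lost on dropping 0 Gy replicate 1 (0.0762), 0 Gy replicate 2 (0.0661), 0 Gy replicate 4 (0.0882), 6 Gy replicate 1 (0.0627) and 6 Gy replicate 4 (0.0754). At 10 Gy the difference passed with the spike-in as a covariate (-2.01), without 0 Gy replicate 3 together with 2 Gy replicate 2 (-2.36, adjusted p = 0.0142) and without 0 Gy replicate 3, and single arrays left out gave -2.36 to -1.35. The difference of 10 against 6 Gy turned to -0.020 with the spike-in as a covariate (adjusted p = 0.987) and was 0.49 to 1.29 with single arrays left out. The slope was -0.17 to -0.06 per Gy with single arrays left out and did not pass in any alternative. The F test passed with scaling over all human probes (F = 7.12), quantile normalization (6.92), the spike-in as a covariate (11.54) and slide row as a block (7.97). It also passed over the probes detected on all 16 arrays (7.95), where miR-21-5p was kept in although it fails that filter. Without 0 Gy replicate 3 and 2 Gy replicate 2 together F was 18.6 and passed. With single arrays left out F was 5.20 to 12.02, and it passed without 0 Gy replicate 3 (12.02) or 2 Gy replicate 2 (10.5). miR-21-3p turned to 0.042 at 2 Gy with scaling over all human probes, where the median of all miRNAs was 0.40 rather than 0.03. At 6 Gy miR-21-3p passed in 3 of 14, with normexp, slide row as a block and a replicate block (adjusted p = 0.0438). The causes were not tested.

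Counts of miRNAs that passed ran from 0 to 125 at 2 Gy (36 as reported), 0 to 183 at 6 Gy (55), 0 to 59 at 10 Gy (1) and 0 to 55 for 10 against 6 Gy (0), and single arrays left out gave up to 121, 143, 43 and 0. For F they ran from 0 to 103 (0). Without the 2 arrays named together 152, 166, 70 and, for F, 163 passed. Same-numbered arrays of different doses did not all deviate together (correlations of -0.76 to 0.87, 14 of 24 over 0.1), and 6 of 16 arrays correlated best with their own number. With a replicate block the calls of miR-21-5p were unchanged (adjusted p = 0.0236 at 2 Gy, 0.0198 at 6 Gy, 0.125 at 10 Gy, 0.379 for 10 against 6 Gy, 0.630 for the slope and 0.0504 for F, limma), and 68, 75 and 7 miRNAs passed at 2, 6 and 10 Gy. A replicate block on the 6 and 10 Gy arrays alone, chosen after seeing the data, gave 0.91 with an adjusted p of 0.171, and 55 miRNAs passed. Signal over background limits the 2 and 6 Gy levels: 3 and 2 of 4 arrays lay at the floor.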
